A study of Mus musculus with 12 samples.

Results

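Of the 55092 gene rows deposited, the 8 whose mouse symbols are Kcnma1, Kcnmb1, Kcna5, Kcnab1, Kcnj8, Abcc9, Kcnq5 and Kcnk3 were taken, which encode the potassium channel subunits best known from vascular smooth muscle. All 8 had a row and all 8 were tested. They were measured by bulk poly(A) RNA-seq of the abdominal aorta of 12 male mice, 1 library per mouse, in 4 groups of 3. Control mice carried floxed CCN2 alleles without Cre (CCN2fl/fl), and knockout mice carried the same alleles with the tamoxifen-inducible Myh11-Cre-ERT2 transgene (CCN2SMCΔ), which directs the deletion to cells that express smooth muscle myosin heavy chain. Both genotypes received 5 doses of tamoxifen from 8 weeks of age, followed by a washout of 2 weeks, and the tissue was taken on day 7 of infusion by mini-osmotic pump. The groups were CCN2fl/fl with saline (CFS, mice 68, 69 and 70), CCN2SMCΔ with saline (CSS, mice 54, 55 and 56), CCN2fl/fl with angiotensin II at 500 ng/kg/min (CFA, mice 71, 72 and 74) and CCN2SMCΔ with angiotensin II at 500 ng/kg/min (CSA, mice 01, 02 and 03). CCN2, formerly called CTGF, is a secreted matricellular protein.

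Potassium channels set the membrane potential of the arterial smooth muscle cell. When they open, potassium leaves, the membrane hyperpolarizes, voltage-gated calcium channels close and the cell relaxes; when they close, the cell depolarizes and contracts. The working channels are assembled from pore-forming and auxiliary subunits, so the 8 genes form 3 pairs and 2 single pores. Kcnma1 encodes the pore and Kcnmb1 the β1 subunit of the large-conductance calcium-activated (BK) channel. Kcna5 encodes a voltage-gated pore of the shaker family and Kcnab1 a cytoplasmic β subunit that binds such pores. Kcnj8 and Abcc9 encode the pore and the sulfonylurea receptor of the vascular ATP-sensitive (KATP) channel. Kcnq5 encodes a slowly activating voltage-gated pore, and Kcnk3 a two-pore background channel.

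Under angiotensin II, 5 of the 8 genes fell in CCN2SMCΔ aortas compared with CCN2fl/fl aortas, namely Kcnab1, Kcnmb1, Kcnk3, Kcnq5 and Kcna5, and none rose; of all tested genes 8.27% fell and 8.95% rose. Both auxiliary subunits of the BK and shaker channels fell by a larger log2 amount than their pores. Abcc9 and Kcnma1 were lower by smaller amounts, and Kcnj8 did not pass the test in any comparison. With saline, no member passed the test between the genotypes.

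Levels are FPKM, fragments per kilobase of exon scaled to the size of the library, and means are given ± SD with n = 3. Differences are on the scale of log2(FPKM + 0.1) with their standard error (SE), from limma fitted to all 12 libraries. A gene was called changed, and is said to have risen or fallen, when the Benjamini-Hochberg adjusted p over 14676 tested genes was below 0.05 and the log2 fold change was beyond 1.5 in size. From the lowest values, the libraries held 14548232 to 23116589 assigned fragments, with a median of 19587308, and CSA 03 held the fewest. The targeted gene Ccn2 was at 766 ± 318 in CFS, 554 ± 106 in CSS, 894 ± 290 in CFA and 328 ± 71.9 in CSA, and it was lower in CSA than in CFA (log2 fold change -1.41, SE 0.34, limma adjusted p = 0.00622) without reaching the fold limit. Between CSS and CFS the Ccn2 values overlapped and did not pass the test (log2 fold change -0.40, SE 0.34, adjusted p = 1), so that a lower Ccn2 RNA level was not shown in the saline knockout aortas. Of the 10 genes on each marker list, all 10 contractile smooth muscle genes were called lower in CSA than in CFA, and their summed FPKM was 977 to 1230 in CSA and 7656 to 13702 in the other 9 libraries. Contractile markers were therefore present in every library. In the same comparison 9 of 10 macrophage, 9 of 9 tested neutrophil and 10 of 10 T cell markers were called higher, and the macrophage sum was 2405 to 2624 in CSA and 252 to 708 elsewhere. In bulk tissue, fewer smooth muscle cells and less RNA per cell cannot be told apart, and the part of these lists in the results below was not tested. Libraries CFS 68 and CSS 55 held skeletal muscle transcripts, with sums of 209.8 and 334.0 against 3.11 to 6.55 in the others. Neither library is in the CSA or CFA group, and without both the same number of members, 5, was called between CSA and CFA. In the interaction of genotype and infusion, which uses both libraries, 3 members were called without them in place of 4.

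**Figure D1:**
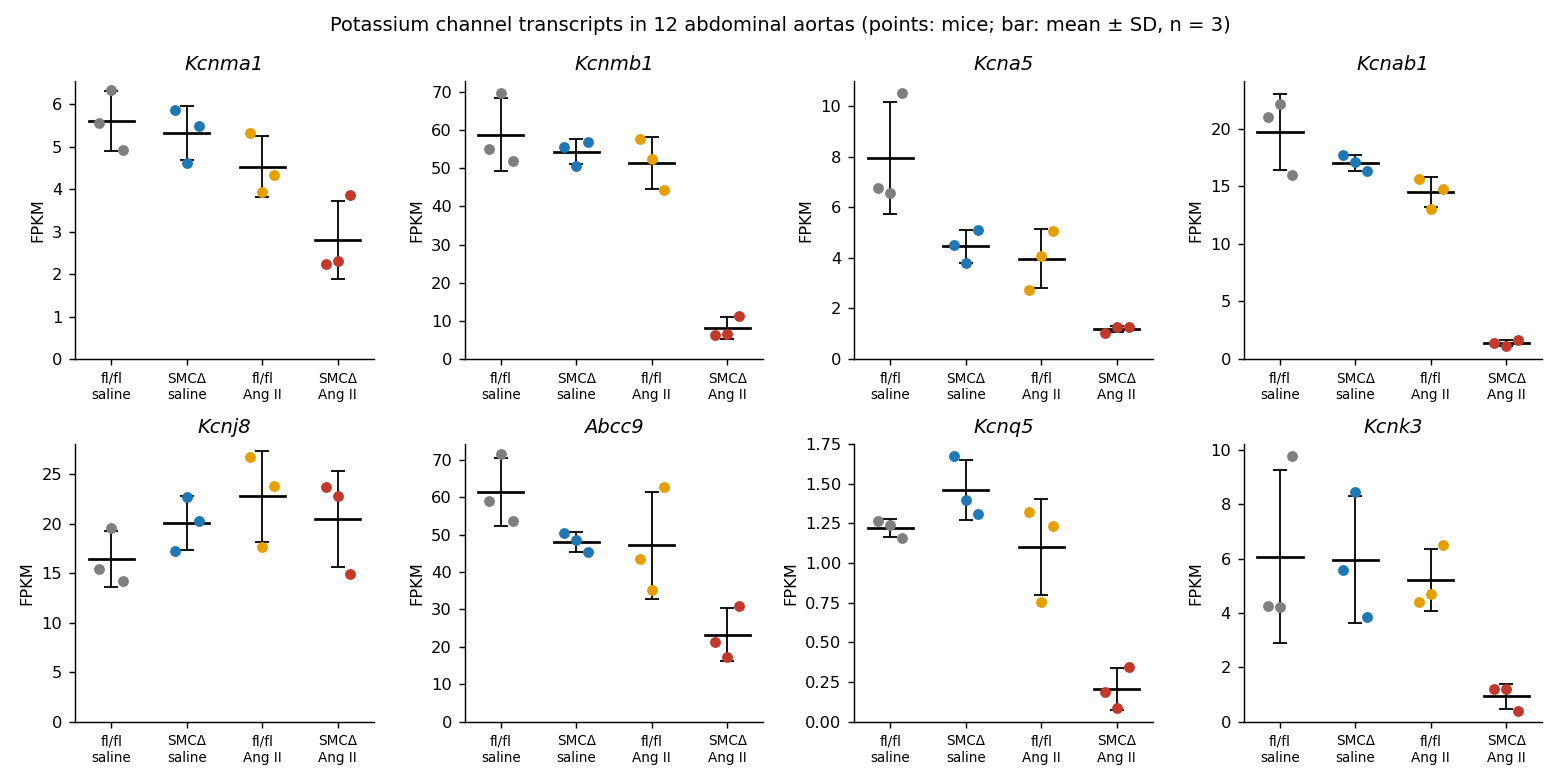
FPKM (y axis, linear from 0) of the 8 genes in each aorta, by genotype and infusion (x axis), with 1 point per mouse and bars for the mean ± SD of 3 mice. The CSA mice lie below all CFA mice for every gene except Kcnj8, whose CSA range of 14.91 to 23.76 overlaps the CFA range of 17.70 to 26.77.

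In CCN2fl/fl saline aortas the order of the levels per length of all annotated exons ran from Abcc9 (61.35 ± 9.20) and Kcnmb1 (58.84 ± 9.51), which overlapped, to Kcnab1 (19.72 ± 3.31) and Kcnj8 (16.42 ± 2.80), which also overlapped. Kcna5 (7.95 ± 2.23), Kcnk3 (6.07 ± 3.19) and Kcnma1 (5.60 ± 0.70) followed, each overlapping the next, and Kcnq5 (1.22 ± 0.05) was lowest. In CSA aortas the order was different: Abcc9 (23.18 ± 7.07) and Kcnj8 (20.50 ± 4.87) led, Kcnmb1 (8.09 ± 2.80) stood below both, and Kcnab1 (1.38 ± 0.25), Kcna5 (1.18 ± 0.13) and Kcnk3 (0.94 ± 0.46) were below Kcnma1 (2.80 ± 0.92) without overlap. Kcnq5 (0.21 ± 0.13) was again lowest on average, with its highest mouse, at 0.35, under the lowest Kcnk3 mouse, at 0.41.

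Of the BK channel pair, the β1 subunit fell and the pore was not called. Kcnmb1 (chr11:33963013-33973641, plus strand, mm10), whose product raises the calcium sensitivity of the channel, was at 55.04, 69.65 and 51.81 FPKM in CFS, 55.51, 50.64 and 56.81 in CSS, 57.78, 52.45 and 44.27 in CFA, and 6.43, 6.52 and 11.32 in CSA. The first 3 groups overlapped one another and every CSA mouse lay far below them. Kcnmb1 fell by 2.70 on the log2 scale in CSA compared with CFA (SE 0.21, adjusted p = 5.33e-06), which left 15.4% of the control level. Kcnma1 (chr14:23289431-24014491, minus strand), the pore, was at 5.55, 6.33 and 4.92 in CFS, 5.86, 4.62 and 5.48 in CSS, 5.32, 3.93 and 4.34 in CFA, and 2.23, 2.30 and 3.86 in CSA. The CSA mice were again below all CFA mice, but CSA 03 lay just under the lowest of them. The log2 fold change was -0.71 (SE 0.21, adjusted p = 0.0214), short of the fold limit. The log2 fold change was -0.59 without CFA 71 (adjusted p = 0.0861), -0.57 without CSA 01 (adjusted p = 0.0737) and -0.60 without CSA 02 (adjusted p = 0.0736), and when only the CFA and CSA libraries were fitted it stayed at -0.71 with an adjusted p of 0.0933. With array weights it was -1.06 (adjusted p = 5.24e-05).

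Within each mouse, Kcnmb1 was 10.3 times Kcnma1 per length in CFS (geometric mean), 10.1 times in CSS and 11.2 times in CFA, but 2.81 times in CSA. The length is that of all annotated exons, 16976 bases for Kcnma1 and 4191 for Kcnmb1. The size of the ratio depends on these lengths and is not a count of transcripts. The log2 ratio was 1.49, 1.46 and 1.53 in the CSA mice and 3.42, 3.70 and 3.32 in the CFA mice. The 3 CSA ratios lay close together and far below all others. The difference of the log2 ratios was -1.99 (SE 0.12, exact permutation p = 0.1, two-sided), and 0.1 is the smallest p that 3 against 3 mice can give; adjusted over the 12 ratio comparisons it was 0.171.

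Of the shaker pair, both genes fell, the β subunit further. Kcnab1 (chr3:65109384-65378223, plus strand) was at 21.03, 22.18 and 15.95 in CFS, 17.73, 17.07 and 16.32 in CSS, 15.60, 13.05 and 14.75 in CFA, and 1.43, 1.11 and 1.61 in CSA. The CSA values were a small remainder of every other value. Kcnab1 fell by 3.31 (SE 0.16, adjusted p = 4.27e-07) to 10.1% of the CFA level, the largest difference among the 8. Kcna5 (chr6:126532551-126535412, minus strand), the pore, was at 6.75, 6.57 and 10.51 in CFS, 4.49, 3.79 and 5.09 in CSS, 2.74, 4.08 and 5.08 in CFA, and 1.03, 1.27 and 1.25 in CSA. It differed from the other members in that every CSS and every CFA mouse lay below every CFS mouse. Kcna5 fell by 1.62 in CSA compared with CFA (SE 0.25, adjusted p = 0.000349), which left 32.4%. This is just past the fold limit, and the value was -1.16 with a pseudocount of 1, -1.39 with array weights and -1.43 without CFA 74, all short of it. These CSA values rest on 60, 77 and 55 fragments for Kcna5 and 249, 202 and 212 for Kcnab1, and counting error alone is therefore larger for the pore. Kcnab1 was 2.50 times Kcna5 in CFS, 3.79 times in CSS, 3.68 times in CFA and 1.15 times in CSA. The CFS value leans on CFS 70, whose log2 ratio was 0.60, against 1.63 in CFS 68 and 1.74 in CFS 69. The log2 ratio was lower by -1.68 in CSA than in CFA (SE 0.35, exact permutation p = 0.1, adjusted 0.171), with no overlap.

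In the KATP channel pair the receptor was lower in CSA and the pore did not pass the test. Kcnj8, the pore, and Abcc9, its sulfonylurea receptor, are neighbours on chr6 on the minus strand, at 142564837-142571614 and 142587862-142702315, with 16.2 kb and 0 annotated genes between them. Because these neighbours had unlike values, the 250 bases before the RefSeq start of each are shown, with that of Kcnmb1 for comparison, from GRCm38.p6, on the strand of the gene and 5′ to 3′. Capitals mark CACCC (the short form of the motif of Kruppel-like factors) and CATTCC (the motif of TEAD factors), read on either strand, so that they also appear as GGGTG and GGAATG.
Kcnj8, chr6:142571615-142571864, minus strand: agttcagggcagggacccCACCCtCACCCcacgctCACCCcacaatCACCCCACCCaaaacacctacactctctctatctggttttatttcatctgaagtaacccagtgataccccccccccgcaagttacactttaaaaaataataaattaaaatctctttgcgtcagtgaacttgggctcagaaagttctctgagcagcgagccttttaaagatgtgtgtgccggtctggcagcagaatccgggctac
Abcc9, chr6:142702275-142702524, minus strand: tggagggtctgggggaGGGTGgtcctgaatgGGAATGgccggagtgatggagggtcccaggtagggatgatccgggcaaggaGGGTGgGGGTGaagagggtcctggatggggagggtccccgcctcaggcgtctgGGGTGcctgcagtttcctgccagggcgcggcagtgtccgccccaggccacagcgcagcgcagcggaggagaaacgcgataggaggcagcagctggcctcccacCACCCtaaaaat
Kcnmb1, chr11:33962763-33963012, plus strand: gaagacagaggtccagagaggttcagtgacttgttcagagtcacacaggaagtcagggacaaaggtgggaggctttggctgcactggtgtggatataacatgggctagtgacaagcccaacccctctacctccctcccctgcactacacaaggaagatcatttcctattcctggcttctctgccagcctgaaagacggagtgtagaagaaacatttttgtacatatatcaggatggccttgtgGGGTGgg
CACCC occurred 5 times before Kcnj8, 5 times before Abcc9 and 1 time before Kcnmb1, the last ending 2 bases short of the start. CATTCC occurred 1 time before Abcc9 and not in the other windows shown. Over the 10 RefSeq starts found for 7 members, CACCC was present in 7 windows (52.0% of 32851 promoter windows of the same length held it), CATTCC in 2, before Abcc9 and Kcna5 (12.6% of windows), CANNTG, the E-box, in 6 (66.2%), and the CArG box of serum response factor in 0 (1.47%). The CArG box was searched as CC, 6 bases of A or T, and GG on both strands. The marked matches adjoin in places but do not overlap, and a match or its lack is a description of these letters only.

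Kcnj8 was at 15.46, 19.57 and 14.22 in CFS, 17.28, 22.70 and 20.33 in CSS, 26.77, 17.70 and 23.83 in CFA, and 23.76, 22.85 and 14.91 in CSA. All 4 groups overlapped. The log2 fold change between CSA and CFA was -0.16 (SE 0.22, 95% confidence interval -0.64 to 0.32, adjusted p = 0.594), and without CSA 03 it was 0.054. Abcc9 was at 59.04, 71.48 and 53.52 in CFS, 50.40, 48.53 and 45.24 in CSS, 43.33, 35.15 and 62.78 in CFA, and 21.38, 17.18 and 30.98 in CSA. The CSA mice lay below every other mouse, with CSA 03 the nearest. The log2 fold change between CSA and CFA was -1.02 (SE 0.24, adjusted p = 0.00623), which left 49.3% and did not reach the fold limit. The ratio of Abcc9 to Kcnj8 was 3.73 in CFS, 2.40 in CSS, 2.03 in CFA and 1.12 in CSA. On the log2 scale the CSA mice were at -0.15, -0.41 and 1.05, so that CSA 03 lay inside the CFA range of 0.69 to 1.39 (difference -0.86, SE 0.49, exact permutation p = 0.3), and leaving out 1 library at a time gave differences from -1.30 without CSA 03 to -0.57 without CSA 02. The ratio was also lower without overlap in CSS than in CFS (difference -0.64, SE 0.14) and in CFA than in CFS (difference -0.87, SE 0.20), each with an exact permutation p = 0.1 and an adjusted 0.171. Pericytes also carry this channel: 3 of 10 pericyte markers were called lower in CSA than in CFA, and the summed FPKM of the list was 300 to 366 in CSA and 949 to 2179 elsewhere. That sum is mostly Rgs5 and Mcam, and the median log2 fold change of the list was -0.37. Among the markers, Rgs5 was at 160 to 194 in CSA and 561 to 1656 elsewhere, while Pdgfrb was at 32.8 to 67.99 and 45.0 to 79.3. Their part in the Kcnj8 and Abcc9 values was not tested.

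**Figure D2:**
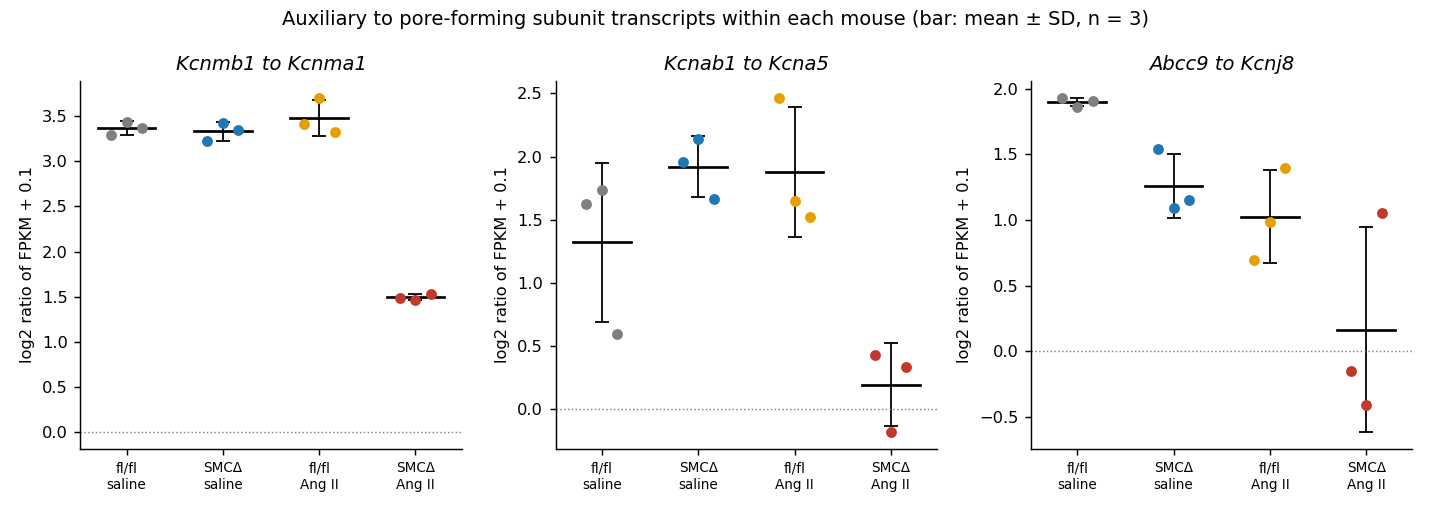
Log2 ratio of FPKM + 0.1 (y axis) of the auxiliary to the pore-forming subunit within each mouse, for the BK, shaker and KATP pairs, by group (x axis), with bars for the mean ± SD of 3 mice. The CSA mice sit at 1.46 to 1.53 for Kcnmb1 to Kcnma1, below all other mice, while 1 CSA mouse at 1.05 falls among the CFA mice for Abcc9 to Kcnj8.

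Both single pores fell in CSA. Kcnq5 (chr1:21398403-21961942, minus strand), whose current is active near the resting potential, was at 1.27, 1.24 and 1.16 in CFS, 1.67, 1.40 and 1.31 in CSS, 1.32, 0.75 and 1.23 in CFA, and 0.19, 0.09 and 0.35 in CSA. All CSA mice were lower than CFA 72, the lowest of the remaining 9. Kcnq5 passed the filter only through libraries outside CSA. It fell by 2.03 (SE 0.35, adjusted p = 0.0008), which left 24.5% on the log2(FPKM + 0.1) scale. This is the thinnest measurement of the 8, with 29, 14 and 41 fragments in the CSA mice, and the added 0.1 makes the fold change smaller than the ratio of the levels. With a pseudocount of 1 it was -0.80, short of the fold limit, and the call did not pass limma's treat (adjusted p = 0.658). Kcnk3 (chr5:30588170-30625271, plus strand), a background channel that is sensitive to external acid, was at 4.26, 4.21 and 9.76 in CFS, 5.56, 8.45 and 3.85 in CSS, 4.41, 4.71 and 6.50 in CFA, and 1.21, 1.19 and 0.41 in CSA. The CSA values were below all others, and CFS 70 and CSS 55 stood high in their groups. Kcnk3 fell by 2.46 (SE 0.44, adjusted p = 0.00108) to 18.2% of the CFA level, with 98, 100 and 25 fragments in the CSA mice.

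Kcnk3 is also expressed in adipocytes. The summed FPKM of 10 adipocyte markers was 3132 in CFS 70, which had the highest Kcnk3, and 239 to 1084 in the other 8 libraries outside CSA, with CSS 55 at 525. In CSA the sum was 178 to 377, and CSA 03 was lowest in both the sum and Kcnk3. In that comparison 4 of the 10 adipocyte markers were called lower, and Adipoq, the adipocyte hormone adiponectin, was at 14.1, 22.6 and 5.67 in CSA and at 20.8, 49.0 and 63.2 in CFA. CSS 56 had an adipocyte sum of 239 and Kcnk3 at 3.85. The part of fat in the Kcnk3 values was not tested.

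**Figure D3:**
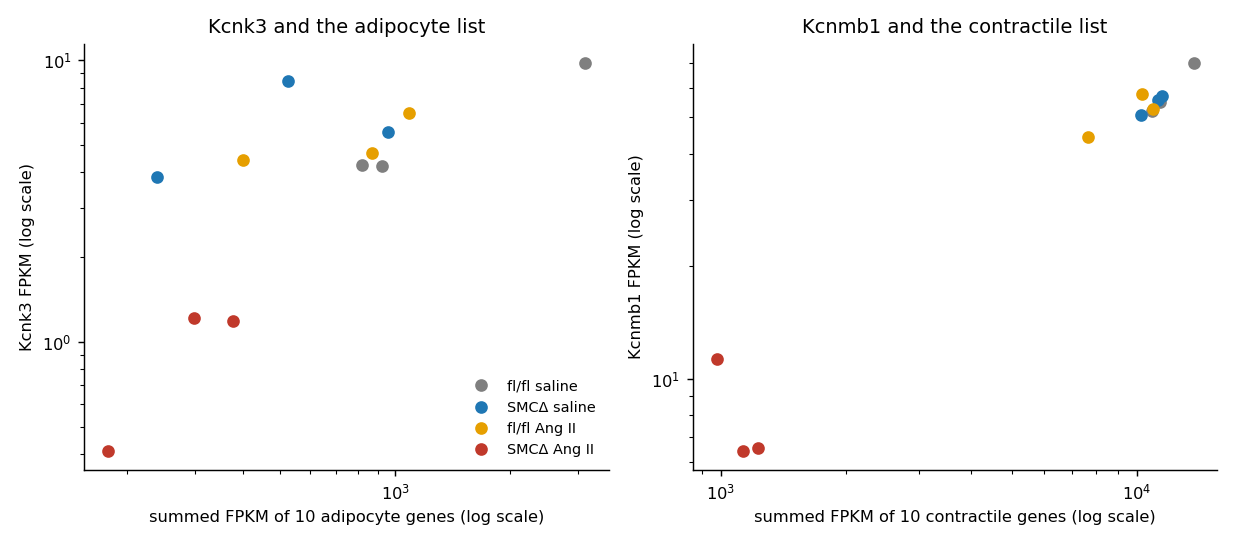
Left, FPKM of Kcnk3 against the summed FPKM of 10 adipocyte genes. Right, FPKM of Kcnmb1 against the summed FPKM of 10 contractile genes. All axes are log scales and each point is 1 of 12 mice. CFS 70 is highest on both axes on the left at 9.76 and 3132, and the 3 CSA mice, at 6.43 to 11.32 for Kcnmb1 and 977 to 1230 for the contractile sum, lie apart from the other 9 on the right.

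In CSA against CFA as a whole, 5 of the 8 members were called lower, where 8.27% of all tested genes were, and 0 were called higher, where 8.95% were. Without the fold limit 7 members were lower at an adjusted p below 0.05 (21.2% of all tested genes), and in 7 the groups did not overlap, with CSA lower (25.1%). The median log2 fold change was -1.83 over the members and -0.037 over all tested genes. The number called was 3 with a pseudocount of 1, where Kcnq5 and Kcna5 dropped out. It was 2 with a minimum mean FPKM of 5, which removes the low pores. It was also 2 when limma's treat tested the fold limit itself, where Kcnk3 dropped out as well as Kcnq5 and Kcna5. When only the CFA and CSA libraries were fitted it was 4. In that fit Kcnq5 reached 1 FPKM only in CFA 71 and CFA 74 and was not tested.

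**Figure D4:**
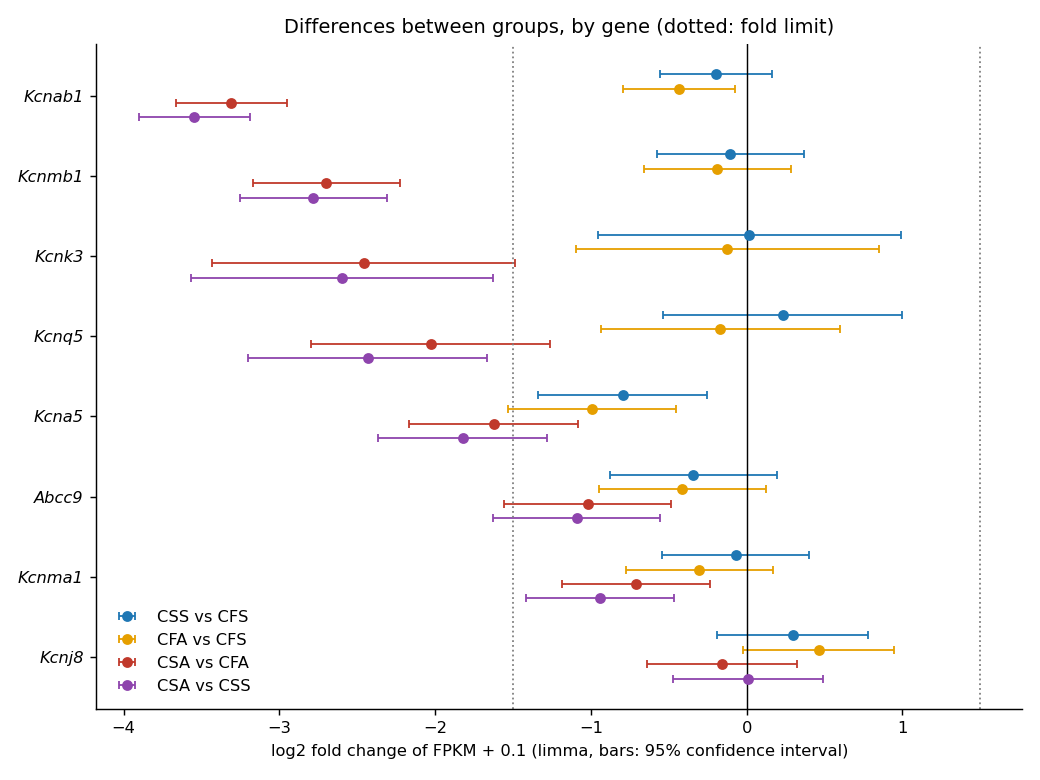
Log2 fold change of FPKM + 0.1 (x axis) of each gene in 4 comparisons, with 95% confidence intervals from limma over 12 libraries; dotted lines mark the fold limit of 1.5. In CSA vs CFA the intervals for Kcnab1 and Kcnmb1 lie wholly beyond the limit, and in CSA vs CSS also those for Kcnk3 and Kcnq5, while all 4 intervals of Kcnj8 include 0.

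The comparison of CSA with CSS, which asks what angiotensin II changed in knockout aortas and shares the CSA libraries with the one above, gave the same 5 members as called lower (9.36% of all tested genes). The log2 fold changes were -3.55 for Kcnab1, -2.78 for Kcnmb1, -2.60 for Kcnk3, -2.43 for Kcnq5 and -1.82 for Kcna5. Abcc9 was at -1.09 (adjusted p = 0.00357) and Kcnma1 at -0.94 (adjusted p = 0.00402), both short of the fold limit, and Kcnj8 at 0.0072 (adjusted p = 0.981).

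Neither angiotensin II in control aortas nor the knockout genotype in saline, where a lower Ccn2 RNA level was not shown, gave a called member. Between CFA and CFS limma called 0 of 8 (0.0273% of all tested genes), and treat also called 0; at an unadjusted p below 0.05 there were 2 members (9.42%), Kcna5 with a log2 fold change of -0.99 (adjusted p = 0.171) and Kcnab1 with -0.43 (adjusted p = 0.425). Kcnj8 was at 0.46 (SE 0.22, adjusted p = 0.559). Between CSS and CFS limma and treat called 0 of 8 (0.0136%), and 1 member had an unadjusted p below 0.05 (6.30% of all tested genes), Kcna5 with -0.80 (adjusted p = 0.526). The 95% intervals of this comparison were -0.58 to 0.37 for Kcnmb1 and -0.55 to 0.16 for Kcnab1, but -0.96 to 0.99 for Kcnk3, which is much wider.

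Whether the genotype difference itself depended on angiotensin II was tested by the interaction of genotype and infusion. It was called lower for 4 members (7.31% of all tested genes): Kcnab1 at -3.11 (SE 0.23, adjusted p = 2.00e-05), Kcnmb1 at -2.59 (SE 0.30, adjusted p = 0.000198), Kcnk3 at -2.47 (SE 0.62, adjusted p = 0.0135) and Kcnq5 at -2.26 (SE 0.49, adjusted p = 0.00626). Without CFS 68 and CSS 55 the interaction for Kcnk3 was -2.00 (SE 0.68) and its adjusted p was 0.0802. For Kcna5 the interaction was -0.83 (adjusted p = 0.106), for Abcc9 -0.68 (adjusted p = 0.179), for Kcnma1 -0.64 (adjusted p = 0.151) and for Kcnj8 -0.45 (adjusted p = 0.32), so a dependence on angiotensin II was not shown for these 4. With CSA 03 left out, the adjusted p was 0.0357 for Abcc9 and 0.00942 for Kcnma1, and for Kcna5 it was 0.047 without CFS 70 and 0.0381 without CFA 71.

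Because all contractile genes fell in CSA, each member was also expressed relative to the mean log2 level of the 10 contractile genes of the same mouse. The median log2 fold change of these 10 genes was -3.28 and that of all tested genes -0.037. A gene at the same level in both groups therefore takes a positive value on this scale, about as large as the fall of the contractile genes, and the positive values below do not mean that a member rose. On this scale Kcnab1 did not separate CSA from CFA (difference -0.019, SE 0.34, exact permutation p = 0.9). Kcnj8 differed by 3.13 (SE 0.21), Kcnma1 by 2.58 (SE 0.43), Abcc9 by 2.27 (SE 0.53), Kcna5 by 1.66 (SE 0.40), Kcnq5 by 1.26 (SE 0.60) and Kcnmb1 by 0.59 (SE 0.44), each without overlap and with the smallest exact permutation p of 0.1 (adjusted 0.178 over 16 comparisons). Kcnk3 differed by 0.83 (SE 0.39) with overlap (exact permutation p = 0.2). The value for Kcnmb1 leans on CSA 03, which was at -1.02, whereas CSA 01 and CSA 02 at -2.23 and -2.41 lay just above the CFA range of -2.52 to -2.44. Kcnq5 likewise leans on CSA 03, at -5.70, since CSA 02 at -7.567 lay next to the highest CFA mouse at -7.573. Myh11 fell further than the list, and with Myh11 alone as the reference the difference of Kcnab1 was 0.87 and that of Kcnmb1 1.48. In saline, Kcna5 was lower by -0.76 (SE 0.30) and Abcc9 by -0.31 (SE 0.10) in CSS than in CFS on this scale. Kcnj8 was higher by 0.33 (SE 0.17). Each was again without overlap at an exact permutation p = 0.1 (adjusted 0.178). The Kcnj8 value leans on CSS 55, at -3.73, since CSS 54 at -4.308 lay next to CFS 69 at -4.317. The Kcna5 value leans on CFS 70, at -4.87, with CFS 68 at -5.56 and CFS 69 at -5.88.

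The wider family held 101 potassium channel genes, of which 33 were tested. In CSA against CFA 5 rose, 14 fell, among them the 5 members, and 14 were not called, where 8.95% of all tested genes rose and 8.27% fell. Of the 5 that rose, Lrrc55, Kcnj2 and Kcnk13 reached 1 FPKM only in the 3 CSA libraries, and Kcnab2 only there and in CFA 72. All of these entered the test through the group in which they were high and could be called only as higher. Of the 25 tested genes outside the 8, 9 fell, 11 were not called and 5, the genes just named included, rose. The filter also bears on the falls: Kcnq5, Kcnj11, Kcnj12, Kcnn3 and Kcnd3, among others, stayed under 1 FPKM in every CSA library. They entered the test through the groups in which they were higher. By class, 7 of 11 tested voltage-gated genes fell and 0 rose, 1 of 5 calcium- or sodium-activated genes fell, 2 of 5 inward rectifiers fell and 2 rose, 1 of 3 two-pore genes fell and 1 rose, and 3 of 9 auxiliary subunits fell and 2 rose. A gene high only in CSA had to reach 1 FPKM in all 3 CSA libraries to be tested. The voltage-gated Kcna3, at 6.55, 4.39 and 0.75 in CSA and 0.29, 0.62 and 0.27 in CFA, was left out by the filter. Kcnc4, also voltage-gated and left out, went the other way, at 0.19, 0 and 0 in CSA and 1.21, 1.81 and 0.76 in CFA.

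Among the genes that fell outside the 8, Kcnh2, the ERG pore, stood at a high level in control arteries. Kcnh2 was at 42.93, 29.19 and 30.73 in CFA and 4.86, 3.65 and 2.15 in CSA and fell by 3.29 (SE 0.28, adjusted p = 8.19e-06). Kcnj11, the other KATP pore, which in the pancreas pairs with a different sulfonylurea receptor, was at 1.3, 0.91 and 1.08 in CFA and 0.027, 0 and 0 in CSA. Its CSA libraries held 2 fragments in all against 259 in CFA, a level 115-fold lower with a 95% exact counting interval of 31.4-fold to 952-fold. The fitted log2 fold change was -3.45 (SE 0.30, adjusted p = 8.60e-06), which the added 0.1 limits. Kcnn3, a small-conductance calcium-activated pore, fell by 2.87 (SE 0.46), Kcnj12, a strong inward rectifier, by 2.80 (SE 0.44) and Kcnd3, a transient voltage-gated pore, by 2.59 (SE 0.40), with adjusted p-values of 0.000549, 0.000461 and 0.000408. Kcnj11, Kcnn3, Kcnj12 and Kcnd3 passed the filter only through libraries outside CSA.

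The genes that rose were an inward rectifier pair, a two-pore gene and auxiliary subunits. Of these, Kcnj2, Kcnk13, Kcnab2 and Lrrc55 passed the filter only through the CSA libraries, so that only a rise could be called for them. Kcnj2, a strong inward rectifier found in vascular cells and macrophages, was at 0.98, 0.35 and 0.65 in CFA and 2.38, 3.33 and 7.36 in CSA and rose by 2.48 (SE 0.45, adjusted p = 0.00111). Kcnj15, another inward rectifier, was at 6.16, 3.51 and 1.73 in CFA and 9.09, 11.02 and 19.73 in CSA and rose by 1.87 (SE 0.51, adjusted p = 0.0122). CSA 03 was the highest mouse for both. Kcnk13, a two-pore channel known from microglia, rose by 2.11 (SE 0.43), and Kcnab2, the β subunit related to Kcnab1 and expressed in leukocytes, rose by 1.90 (SE 0.43), with adjusted p-values of 0.00253 and 0.00439. Kcnab2 was at 5.20, 4.97 and 2.67 in CSA and at 0.82, 1.94 and 0.66 in CFA, where CFA 72 also had the highest macrophage sum of its group at 708. Lrrc55, an auxiliary subunit of the BK channel, was at 0.14, 0.14 and 0.035 in CFA and 1.87, 1.35 and 2.61 in CSA and rose by 3.33 (SE 0.56, adjusted p = 0.000658). The part of the leukocyte lists in these values was not tested.

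**Figure D5:**
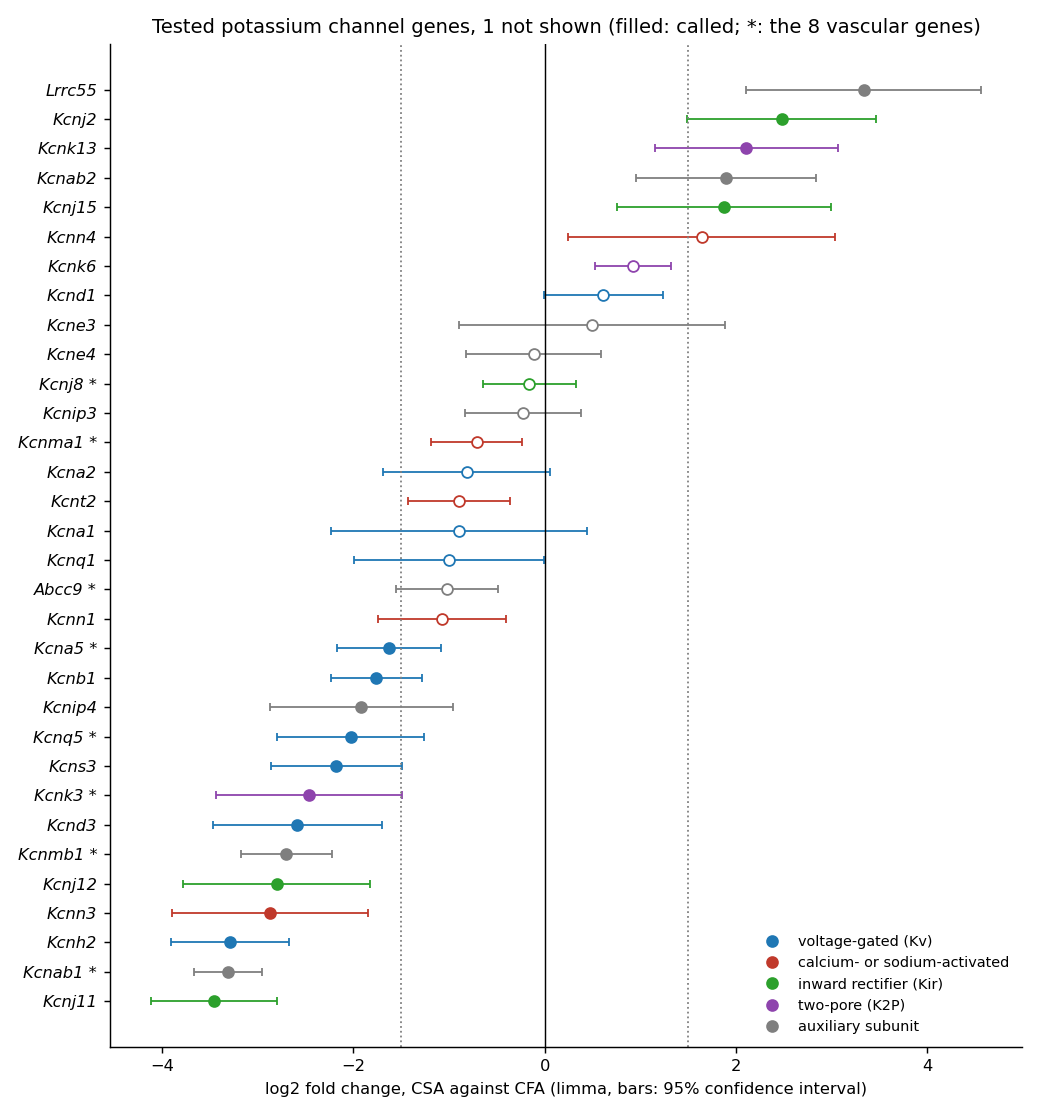
Log2 fold change of CSA against CFA (x axis) with the 95% confidence interval from limma for the tested potassium channel genes except 1, ordered by value and coloured by class; filled points were called and asterisks mark the 8 genes. The called genes run from Kcnj11 at -3.45 to Lrrc55 at 3.33, with Kcnj8 at -0.16 among those not called.

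Across the 12 libraries, the genes outside the lists whose log2 levels were most like those of each member, among 7679 genes with a mean FPKM of at least 5, were Fyco1 for Kcnab1 (Pearson r = 0.998), Inpp5a for Kcnmb1 (r = 0.998), Tmx4 for Kcnq5 (r = 0.99), C030006K11Rik for Kcnk3 (r = 0.99), Vezf1 for Kcnma1 (r = 0.98), Abi3bp for Abcc9 (r = 0.98), Lonp2 for Kcna5 (r = 0.97) and Pold4 for Kcnj8 (r = 0.89). Among the members themselves r was 0.62 to 0.99 for pairs without Kcnj8 and -0.38 to 0.023 for pairs with it. These values are descriptions over 12 libraries, 3 of which, those of CSA, stand apart in 7 of the 8 members. Some reads may also come from antisense genes, which share 5.98% of the exonic bases of Kcnma1, 5.76% of Kcnk3, 3.08% of Kcnq5, 2.34% of Kcnab1 and 1.89% of Abcc9, and none of Kcnmb1, Kcna5 or Kcnj8. For Ccn2 the share was 23.2%. In the contractile reference list it was largest for Tagln, at 67.9%, and the effect on its level was not tested.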

How the data were processed

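The authors aligned paired-end reads to mm10 with HISAT2 2.0.5, assembled transcripts with StringTie 1.3.3b and counted fragments with featureCounts 1.5.0-p3, as named in the submitters' processing notes; the annotation release and strand setting are not given in the sources used here. The deposited values are FPKM per gene, 1 column per mouse, and 0 columns were left unused. Libraries had been scaled to one another before deposit: a median-of-ratios factor of 1.01 was found for each of the 12. Multiplying FPKM by GENCODE M21 exon length gave whole fragments (within 0.1) for 98.4 to 98.7% of values under 100 fragments, which gave the depth; intervals on fragments cover counting error only.

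Genes reaching 1 FPKM in 3 or more libraries were tested on log2(FPKM + 0.1) with limma 3.58.1 in R 4.3.3 (1 coefficient per group, eBayes with trend and robust settings, Benjamini-Hochberg adjustment); the method was tested on simulated data. The study's own tool needs read counts, so limma took its place. Ratios within a mouse were compared by exact permutation tests. Python 3.11.15, pandas 2.3.3, numpy 2.4.6, scipy 1.17.1 and matplotlib 3.10.9 were used. Promoter sequences are RefSeq's (GRCm38.p6); 7 of 8 members matched. The members and all lists were chosen with earlier results of these data known. Named beside the 8 members were up to 6 other potassium channel genes per direction with the largest called change, the most correlated gene per member, Ccn2, markers a result turns on, and Kcna3 and Kcnc4, which the filter left out. Of these, 1 gene is not reported here. Nothing in the sources gives a batch, and each mouse was 1 library. Alternatives changed the pseudocount, filter, scaling, moderation, weights, threshold, samples fitted, reference list and libraries.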

Additional observations from a re-analysis of the deposited data

Results flagged for a closer look

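The difference between the genotypes was itself different under angiotensin II and under saline for 4 of the 8 genes, by the interaction test in limma, where 7.31% of all tested genes were called lower. The genotype effect under angiotensin II minus that under saline was -3.11 for Kcnab1, -2.59 for Kcnmb1, -2.47 for Kcnk3 and -2.26 for Kcnq5 on the log2 scale. In each of these genes all 3 CSA mice lay below the other 9 mice. In the same 3 mice all 10 contractile markers were called lower against CFA. Without CFS 68 and CSS 55, which held skeletal muscle transcripts, the adjusted p of Kcnk3 was 0.0802, and with limma's treat 1 of the 4 was called.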

How the results depend on the processing

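The calls of Kcnab1 and Kcnmb1 in CSA against CFA held under all 22 alternatives. With a pseudocount of 1, the members called were 3 in place of 5 in CSA against CFA and 3 in CSA against CSS. With a mean FPKM of at least 5 they were 2 in each, and 2 for the interaction in place of 4; with limma's treat they were 2, 2 and 1. The higher FPKM minimum leaves the pores under it untested, and treat tests a stricter statement. Leaving out 1 library gave 4 to 5 members called in CSA against CFA. Array weights gave an interaction adjusted p of 0.00562 for Abcc9 and 0.00159 for Kcnma1, and 0.0213 for Kcna5 in CFA against CFS; the cause was not tested. All groups share 1 estimate of the spread, so CSA 03, the library with the fewest fragments, bears on every comparison. Without it, 1900 of 14066 genes had a limma unadjusted p below 0.05 between CSS and CFS, in place of 924 of 14676.

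Signs changed only in values that did not pass the test. Leaving out 1 library at a time, the log2 fold change of Kcnj8 ran from -0.33 to 0.054 in CSA against CFA and from -0.11 to 0.22 in CSA against CSS. In CSS against CFS it ran from -0.16 to 0.025 for Kcnma1, from -0.19 to 0.023 for Kcnmb1 and from -0.27 to 0.41 for Kcnk3. In CFA against CFS it ran from -0.31 to 0.058 for Kcnq5 and from -0.33 to 0.27 for Kcnk3. Without both CFS 68 and CSS 55, an alternative chosen after seeing the data, CSS against CFS gave 0.023 for Kcnma1 and -0.46 for Kcnk3. No paired analysis was possible because the groups share no replicate numbers. Depth limits Kcnq5, Kcnk3 and Kcna5 most in CSA.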
